A study of Mus musculus with 8 samples.

Results

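The integrated stress response was examined in the cochlea through 10 genes, chosen by their symbols, of the 47502 distinct gene symbols listed in the count data. They comprise 5 transcription factors, *Atf4*, *Atf5*, *Atf3*, *Ddit3* and *Cebpb*, and 5 effectors, *Chac1*, *Trib3*, *Ddit4*, *Sesn2* and *Gdf15*. Bulk RNA seq was performed on cochleae, the hearing organ of the inner ear, from 4 WT mice and 4 *Opa1*+/- mice at postnatal day 21. *Opa1* encodes a mitochondrial GTPase of the inner membrane that fuses mitochondria and shapes their cristae. The *Opa1*+/- mice carry 1 copy of the knock-in delTTAG allele in every cell, and the WT mice were their littermates on the same mixed background of C57BL/6J and 129 Sv/Pas. No mouse was treated, and the study used males and females. Homozygous carriers die before birth, so the model is limited to 1 mutant copy. Mice are called here by genotype and animal number, WT 4, 5, 6 and 8 and *Opa1*+/- 2, 7, a and b, where a and b stand for the lower and the higher of 2 animal numbers with 3 digits.

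The integrated stress response is a program by which cells meet amino acid shortage, unfolded protein in the endoplasmic reticulum (ER), viral RNA or mitochondrial damage. Its kinases phosphorylate the translation initiation factor eIF2alpha, which slows protein synthesis in general but favors translation of a few mRNAs with upstream reading frames, among them those of *Atf4*, *Atf5* and *Ddit3*. The ATF4 protein then switches on genes of amino acid supply and further transcription factors. For these factors the protein can change while the mRNA does not, and only mRNA was measured here. Mitochondrial stress is relayed to the kinase HRI through the protease OMA1, the same enzyme that cleaves the OPA1 protein.

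Depth was between 15978051 and 20828030 counts on named genes per mouse, and levels are given as CPM, counts scaled to a common library size with TMM factors. As a check of the labels, *Opa1* was at 119, 126, 112 and 122 CPM in WT 4, 5, 6 and 8 and at 63.5, 68.4, 60.4 and 70.0 CPM in *Opa1*+/- 2, 7, a and b. The groups did not overlap, and *Opa1* fell by 0.87 on the log2 scale (SE 0.07, adjusted p = 0.00515, edgeR's quasi-likelihood test). Without *Opa1*+/- 2 the log2 difference was -0.85 and the adjusted p 0.0704. Markers of cochlear cells were detected in all 8 mice, among them *Coch* of fibrocytes at 2301 to 3443 CPM, *Nefh* of spiral ganglion neurons at 1042 to 1581 CPM and *Myo6* of hair cells at 110.3 to 153 CPM. A whole cochlea mixes these cells, so that fewer cells of a type and less RNA per cell cannot be told apart.

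The promoters of *Chac1* and *Atf3* hold the core of the composite element that ATF4 binds together with C/EBP factors, and those of *Atf5* and *Ddit3* are shown beside them because these 3 genes, *Atf5*, *Ddit3* and *Chac1*, had the separated values described below. The sequences are the 250 bases before the RefSeq start (GRCm38.p6), read 5′ to 3′ on the strand of the gene, with the matching letters in capitals. That of *Chac1* spans chr2:119350992-119351241 on the plus strand, that of *Atf3* chr1:191183334-191183583 on the minus strand, that of *Ddit3* chr10:127290543-127290792 on the plus strand and that of *Atf5* chr7:44816659-44816908 on the minus strand. The *Atf3* window lies inside the annotated span of the gene (chr1:191170296-191218039), and the *Atf5* window is the more upstream of 2.
Chac1: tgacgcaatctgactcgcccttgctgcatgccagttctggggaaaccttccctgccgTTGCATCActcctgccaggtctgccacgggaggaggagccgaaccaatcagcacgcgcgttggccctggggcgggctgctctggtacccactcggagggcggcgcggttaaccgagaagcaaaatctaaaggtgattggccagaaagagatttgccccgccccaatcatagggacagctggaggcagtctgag
Atf3: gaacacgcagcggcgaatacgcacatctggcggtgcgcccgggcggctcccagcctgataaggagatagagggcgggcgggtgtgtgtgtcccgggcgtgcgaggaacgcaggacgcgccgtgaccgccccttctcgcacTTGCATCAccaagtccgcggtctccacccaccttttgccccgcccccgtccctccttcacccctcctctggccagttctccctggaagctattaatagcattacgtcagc
Ddit3: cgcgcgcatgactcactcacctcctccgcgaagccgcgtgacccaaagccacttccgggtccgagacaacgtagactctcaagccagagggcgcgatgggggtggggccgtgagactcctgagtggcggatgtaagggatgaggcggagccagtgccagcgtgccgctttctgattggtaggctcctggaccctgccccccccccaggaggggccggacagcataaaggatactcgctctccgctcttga
Atf5: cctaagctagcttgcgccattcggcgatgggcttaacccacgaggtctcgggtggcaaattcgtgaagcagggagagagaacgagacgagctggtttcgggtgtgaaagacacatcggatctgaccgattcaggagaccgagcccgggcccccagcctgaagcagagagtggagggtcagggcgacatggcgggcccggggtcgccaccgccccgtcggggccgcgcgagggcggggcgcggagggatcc

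The motif searched was TGATGNAA or its reverse complement TTNCATCA. It was found in 3.45% of the 32851 windows of 250 bases before RefSeq starts and in those of 2 of the 10 genes. In *Chac1* the match TTGCATCA begins 193 bases before the start, and in *Atf3* the same letters begin 110 bases before it. Among other targets of the response, *Fgf21* holds TTGCATCA from 139 bases before its start and *Asns* holds TGATGAAA from 23 bases before. The cAMP response element TGACGTCA was in 1.55% of windows and in none of the 10 genes, and *Ppp1r15a* holds it from 12 bases before its start. A match describes the letters in this window and is not a measured binding site.

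When levels were divided by the length of exons, *Atf4* was by far the most abundant of the 10 in WT cochlea, at 60.2 ± 1.16 CPM per kilobase (SD, n = 4). *Atf5* followed at 20.1 ± 2.02, *Ddit4* at 19.1 ± 4.08 and *Ddit3* at 16.3 ± 0.965 CPM per kilobase. The WT ranges of *Atf5* and *Ddit4* overlapped, as did those of *Ddit4* and *Ddit3*, so that the place of *Ddit4* is not fixed by the data, while every WT value of *Atf5* lay above those of *Ddit3*. All other neighbors in the order had WT ranges apart. *Cebpb* was at 8.56 ± 0.954, *Atf3* at 3.29 ± 1.59 and *Sesn2* at 1.74 ± 0.174 CPM per kilobase. The effectors *Chac1*, *Trib3* and *Gdf15* were the lowest, at 1.21 ± 0.295, 0.597 ± 0.119 and 0.288 ± 0.0933 CPM per kilobase. In the plot of length-scaled levels, the factor translated at the head of the response and its scarcest effector are set apart by more than 2 orders of magnitude.

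**Figure D1:**
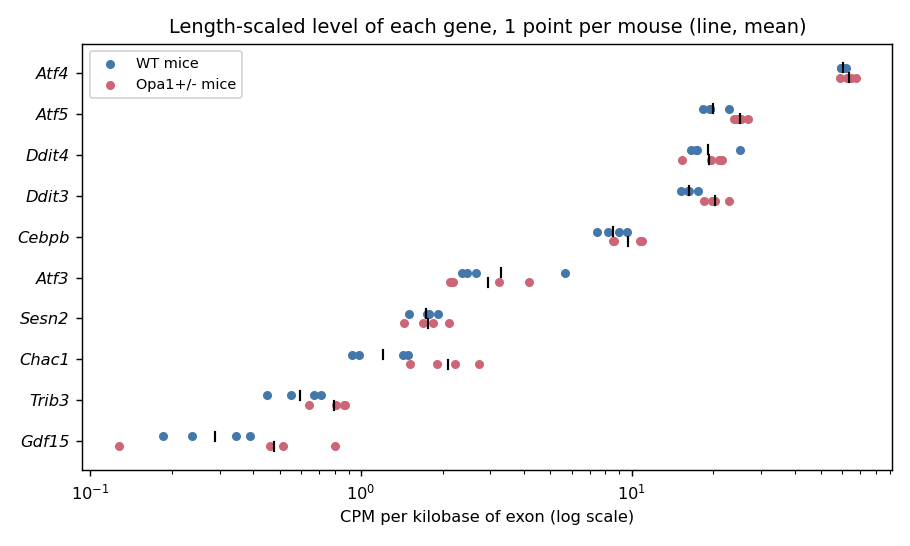
CPM per kilobase of exon (log scale) of the 10 genes in WT (blue) and *Opa1*+/- mice (red), 1 point per mouse, with a line at each mean. *Atf4* lies at 60.2 CPM per kilobase in WT and *Gdf15* at 0.288.

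The comparison of the genotypes asks whether loss of 1 functional *Opa1* copy goes with a changed level of these mRNAs. *Atf5*, *Ddit3* and *Chac1* were each higher in every *Opa1*+/- mouse than in every WT mouse, by 1.25-fold, 1.25-fold and 1.75-fold in the fit. *Atf4* itself differed by 1.05-fold, and its groups overlapped. With adjustment over the 19366 genes tested, 0 of the 10 had a p under 0.05, and 0.0258% of all genes tested did. At an unadjusted p under 0.05, 3 of the 10 were higher and 0 lower, against 3.51% and 3.22% of all genes tested. DESeq2's Wald test also called 0 of the 10. The genes were selected with earlier results of these samples known, so these shares describe them and are not evidence about the response.

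*Atf4* encodes the factor whose translation starts the transcriptional program. Its level was 146, 140.3, 140.2 and 142 CPM in WT 4, 5, 6 and 8 and 152, 148, 159 and 139 CPM in *Opa1*+/- 2, 7, a and b. The highest value was that of *Opa1*+/- a and the lowest that of *Opa1*+/- b, so the groups overlapped. The means were 142 ± 2.73 CPM in WT against 149 ± 8.32 CPM in *Opa1*+/- mice. The log2 fold change was 0.07 (SE 0.06, adjusted p = 0.831) with a 95% interval from -0.06 to 0.20, and it ran from 0.05 without *Opa1*+/- a to 0.10 without *Opa1*+/- b. Within WT the coefficient of variation was 1.92%, at the 1.94% that counting alone gives at this depth.

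*Atf5* encodes a related factor that is also translated when eIF2alpha is phosphorylated and that serves mitochondrial protein quality control. Its level was 36.4, 45.8, 39.0 and 38.8 CPM in WT 4, 5, 6 and 8 and 48.8, 53.6, 47.8 and 50.4 CPM in *Opa1*+/- 2, 7, a and b. All 4 *Opa1*+/- values lay above the highest WT value, that of WT 5, and *Opa1*+/- 7 was the highest of the 8 mice. The means were 39.97 ± 4.02 and 50.2 ± 2.55 CPM (SD, n = 4 each). The log2 fold change was 0.33 (SE 0.08, 95% interval 0.15 to 0.50, adjusted p = 0.722), and DESeq2 gave an adjusted p of 0.621. *Atf5* (chr7:44812256-44816658, minus strand, GRCm38) shares 571 bases with *Nup62* and 272 with *Il4i1* on the opposite strand, where *Nup62* had a log2 difference of 0.01 (adjusted p = 0.988) and *Il4i1*, with 12 to 20 counts per mouse, one of 0.37 (adjusted p = 0.784).

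*Ddit3* encodes CHOP, a factor that ATF4 induces and that can turn the response toward cell death. It was at 30.1, 26.1, 28.0 and 27.6 CPM in WT 4, 5, 6 and 8 and at 33.9, 34.7, 39.2 and 31.7 CPM in *Opa1*+/- 2, 7, a and b. Again every *Opa1*+/- mouse exceeded every WT mouse, with *Opa1*+/- a the highest and *Opa1*+/- b nearest to the WT range. The means were 27.9 ± 1.65 and 34.9 ± 3.18 CPM, with a log2 fold change of 0.32 (SE 0.08, 95% interval 0.15 to 0.49, adjusted p = 0.722). DESeq2 gave an adjusted p of 0.714. The annotation places the symbol on 2 gene records, and *Ddit3* (chr10:127290774-127296288, plus strand) shares 68 bases with *Mars* on the opposite strand, which had a log2 fold change of 0.15 (adjusted p = 0.728). Whether strand was used in counting is not given in the sources used here.

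*Atf3* encodes a factor induced by many stresses that is often a repressor. It was at 5.08, 5.32, 5.74 and 12.2 CPM in WT 4, 5, 6 and 8 and at 6.98, 9.02, 4.58 and 4.72 CPM in *Opa1*+/- 2, 7, a and b. WT 8 was far above the other WT mice, and *Opa1*+/- a and b lay below all WT mice, while *Opa1*+/- 2 and 7 lay between WT 8 and the other 3 WT mice. The log2 fold change was -0.16 (SE 0.33, 95% interval -0.90 to 0.58, adjusted p = 0.943), and without WT 8 it was 0.24.

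*Cebpb* encodes C/EBPbeta, a partner with which ATF4 and CHOP form dimers. It was at 12.3, 13.5, 11.2 and 14.5 CPM in WT 4, 5, 6 and 8 and at 12.8, 16.5, 12.9 and 16.1 CPM in *Opa1*+/- 2, 7, a and b. *Opa1*+/- 7 and b lay above all WT mice and the other 2 within the WT range. The log2 fold change was 0.18 (SE 0.12, 95% interval -0.09 to 0.45, adjusted p = 0.790), and it was 0.08 with limma voom and 0.12 without WT 6 or without *Opa1*+/- 7. *Cebpb* (chr2:167688915-167690418, plus strand) shares 908 bases with *Tmem189* on the opposite strand, whose counts of 1305 to 1502 per mouse were several times those of *Cebpb*, at 187 to 329.

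**Figure D2:**
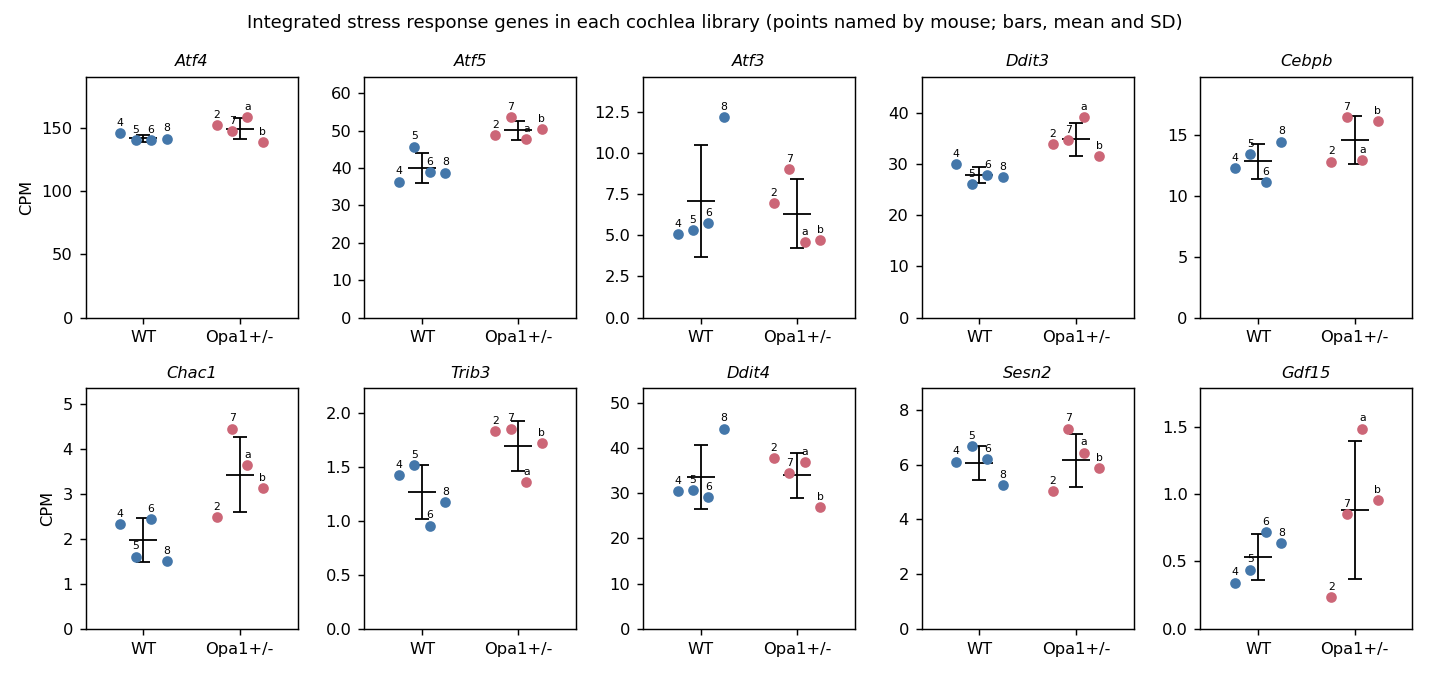
CPM of the 10 genes in each mouse, WT in blue and *Opa1*+/- in red, with animal numbers beside the points and bars for the mean and SD of 4 mice. The groups are apart for *Atf5*, *Ddit3* and *Chac1*, and WT 8 stands above the other WT mice for *Atf3* (12.2 CPM) and *Ddit4* (44.3 CPM).

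Among the effectors, *Chac1* encodes an enzyme that degrades glutathione and is a target of ATF4 and CHOP. Its level was 2.34, 1.61, 2.45 and 1.52 CPM in WT 4, 5, 6 and 8 and 2.48, 4.46, 3.65 and 3.13 CPM in *Opa1*+/- 2, 7, a and b. The groups did not overlap, but *Opa1*+/- 2 exceeded WT 6 only narrowly, with 42 counts against 41. The means were 1.98 ± 0.483 and 3.43 ± 0.837 CPM, and the log2 fold change was 0.80 (SE 0.24, 95% interval 0.27 to 1.34, adjusted p = 0.722). Counts per mouse ranged from 31 to 89, so that counting alone gives a coefficient of variation of 16.6% in WT, where 24.4% was observed.

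*Trib3* encodes a pseudokinase induced by CHOP that dampens ATF4 and insulin signals. It was at 1.43, 1.51, 0.956 and 1.18 CPM in WT 4, 5, 6 and 8 and at 1.83, 1.85, 1.36 and 1.72 CPM in *Opa1*+/- 2, 7, a and b. In *Opa1*+/- 2, 7 and b the level was above all WT mice, while *Opa1*+/- a lay within the WT range. The log2 fold change was 0.41 (SE 0.21, 95% interval -0.05 to 0.88, adjusted p = 0.758). With 16 to 37 counts per mouse, the WT coefficient of variation of 19.9% did not exceed the 20.4% of counting.

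*Gdf15* encodes a secreted cytokine used as a blood marker of mitochondrial disease. It was near the limit of detection, with 6, 9, 12 and 13 counts in WT 4, 5, 6 and 8 and 4, 17, 24 and 15 counts in *Opa1*+/- 2, 7, a and b. These counts correspond to 0.534 ± 0.173 CPM in WT against 0.883 ± 0.512 CPM in *Opa1*+/- mice. *Opa1*+/- 2 was the lowest of all mice and the other 3 *Opa1*+/- mice were the highest. The log2 fold change was 0.71 (SE 0.47, adjusted p = 0.790), and its 95% interval from -0.34 to 1.76 spans both directions. Without *Opa1*+/- a the value was 0.36, and with limma voom it was 0.40.

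*Sesn2* encodes a leucine sensor that restrains mTORC1, and *Ddit4* encodes REDD1, another inhibitor of mTORC1. *Sesn2* was at 6.11, 6.69, 6.21 and 5.24 CPM in WT 4, 5, 6 and 8 and at 5.03, 7.32, 6.44 and 5.87 CPM in *Opa1*+/- 2, 7, a and b, with a log2 difference of 0.03 (95% interval -0.30 to 0.35, adjusted p = 0.978). The lowest and the highest values were both from *Opa1*+/- mice. *Ddit4* was at 30.4, 30.7, 29.0 and 44.3 CPM in WT 4, 5, 6 and 8 and at 37.8, 34.4, 36.9 and 26.9 CPM in *Opa1*+/- 2, 7, a and b, with a log2 difference of 0.02 (95% interval -0.32 to 0.36, adjusted p = 0.987). WT 8 was the highest and *Opa1*+/- b the lowest, and without WT 8 the log2 difference was 0.18.

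Of the 10 genes, 9 had a positive log2 fold change, against 50.1% of all genes tested, and the median over the 10 was 0.25, against 3.95e-04 over all genes. Groups that did not overlap were found for 3 of the 10 with higher and 0 with lower values in *Opa1*+/- mice, against 1.98% and 2.33% of all genes. As seen in the plot of log2 fold changes, the intervals of *Atf5*, *Ddit3* and *Chac1* did not include 0 and those of the other 7 did. When single mice or groups of mice were left out or the scaling, filter or tool was changed, the log2 fold change stayed between 0.29 and 0.40 for *Atf5*, between 0.27 and 0.36 for *Ddit3* and between 0.65 and 0.93 for *Chac1*. Each of these 3 had an unadjusted p under 0.05 in 18 of 18 such alternatives, and their lowest adjusted p values over them were 0.216, 0.381 and 0.389. The 3 were picked by their values in the same libraries that the alternatives reuse. Their persistence is therefore no independent evidence.

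**Figure D3:**
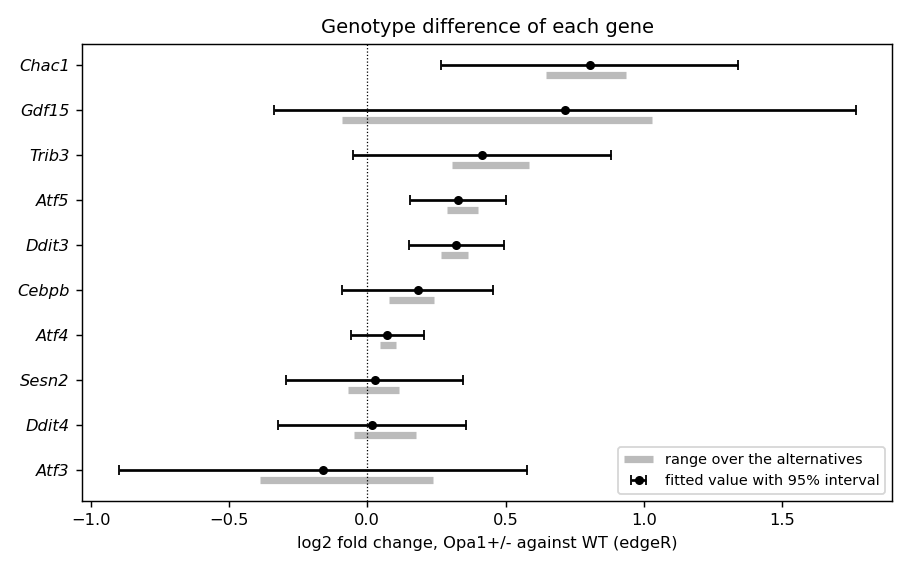
Log2 fold change of each gene in *Opa1*+/- against WT mice, with the 95% interval (black) and the range over the alternatives of samples, scaling, filter and tool (grey). *Chac1* is at 0.80, *Atf5* at 0.33 and *Ddit3* at 0.32, and the range of *Atf3* crosses 0.

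The high values were not spread evenly over the *Opa1*+/- mice. *Opa1*+/- 7 was the highest of the 8 mice for 5 genes, *Atf5*, *Chac1*, *Trib3*, *Sesn2* and *Cebpb*, and was among the top 4 for 10 of 10. *Opa1*+/- a was the highest for 3, *Atf4*, *Ddit3* and *Gdf15*. WT 8 was the highest for the other 2, *Atf3* and *Ddit4*. Without *Opa1*+/- 7 the log2 fold change of *Chac1* was 0.65 and that of *Sesn2* -0.07, and without *Opa1*+/- a that of *Ddit3* was 0.27.

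Upstream of the 10 genes, no sensor or kinase passed either threshold. Of 13 tested genes for eIF2alpha kinases, their sensors and the exchange factor eIF2B, 0 passed the adjusted threshold and 0 an unadjusted p under 0.05, with a median log2 fold change of -0.00083. At that unadjusted p, 3.51% of all genes tested were higher and 3.22% lower. *Eif2ak1*, which encodes the kinase HRI, was at 64.3 to 68.9 CPM in WT against 64.9 to 68.5 CPM in *Opa1*+/- mice, with a log2 difference of -0.01. The kinases of double-stranded RNA (*Eif2ak2*), ER stress (*Eif2ak3*) and amino acid shortage (*Eif2ak4*) had log2 differences of -0.08, -0.07 and -0.09. *Oma1* was at 7.23 to 7.89 CPM in WT against 7.21 to 7.82 CPM in *Opa1*+/- mice, with a log2 difference of 0.01. *Dele1*, which links OMA1 to HRI, was not analysed here. Kinase activity and eIF2alpha phosphorylation are not seen in mRNA levels.

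Of the 7 tested genes of the eIF2alpha phosphatase and its feedback, 0 passed the adjusted threshold. At an unadjusted p under 0.05, 0 were higher and 2 lower, *Dnajc3* and *Ppp1cb*. *Dnajc3*, which encodes the PERK and PKR inhibitor P58IPK, was at 152, 160.4, 164 and 164 CPM in WT 4, 5, 6 and 8 and at 139, 139.7, 151 and 138 CPM in *Opa1*+/- 2, 7, a and b. Its groups did not overlap, with a log2 difference of -0.17 (SE 0.06, adjusted p = 0.722). *Ppp1r15a*, which encodes the stress-induced phosphatase subunit GADD34, is itself a target of ATF4 and CHOP and had a log2 difference of 0.12 (SE 0.09, adjusted p = 0.802).

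Among other targets of ATF4 and CHOP, no tested gene had an adjusted p under 0.05, and a common direction was not tested for. Of 16 tested, 11 had positive and 5 negative log2 fold changes, with a median of 0.05, and 0 were called. The 1 gene with an unadjusted p under 0.05, *Klhl24*, was lower in *Opa1*+/- mice, with a log2 difference of -0.23 (SE 0.07, adjusted p = 0.722). *Eif4ebp1*, an inhibitor of cap-dependent translation, ranged from 8.47 to 21.2 CPM in WT against from 17.2 to 22.1 CPM in *Opa1*+/- mice (log2 difference 0.48, SE 0.25, adjusted p = 0.762), and *Cebpg*, another dimer partner of ATF4, had a log2 difference of -0.11. *Fgf21*, a hormone induced by ATF4, was at 0.296 to 0.717 CPM in the 8 mice, under the minimum for testing.

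Amino acid supply is the best known output of ATF4. Of 18 genes for synthesis and transport of amino acids, 15 had positive and 3 negative log2 fold changes, with a median of 0.07, and 0 were called. *Shmt2*, the mitochondrial serine hydroxymethyltransferase, had a log2 difference of 0.21 (SE 0.08, adjusted p = 0.722) and was the 1 gene with an unadjusted p under 0.05. *Phgdh*, the entry enzyme of serine synthesis, was at 0.13 on the same scale. *Asns*, asparagine synthetase, was at 60.7, 62.4, 44.2 and 60.0 CPM in WT 4, 5, 6 and 8 and at 56.2, 65.1, 53.9 and 60.6 CPM in *Opa1*+/- 2, 7, a and b, a log2 difference of 0.05. The cystine transporter *Slc7a11* had a log2 difference of -0.33 (SE 0.16, adjusted p = 0.749), opposite in sign to *Chac1*, the other glutathione gene described here.

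Of 13 cytosolic aminoacyl-tRNA synthetases, several of which ATF4 induces, 10 had positive and 3 negative log2 fold changes (median 0.04), and 0 were called. *Mars* had an unadjusted p under 0.05. For *Sars* the groups did not overlap, at 110.1 to 116 CPM in WT against 120.3 to 125 CPM in *Opa1*+/- mice (log2 difference 0.11, adjusted p = 0.741). Of 17 other bZIP factors that can pair with the ATF and C/EBP proteins, 8 were positive and 9 negative, and 0 had an unadjusted p under 0.05. *Batf* was at 0.799 to 1.03 CPM in WT against 1.05 to 1.49 CPM in *Opa1*+/- mice without overlap (log2 difference 0.42, adjusted p = 0.758). It had 14 to 24 counts per mouse, with 21 in both WT 5 and *Opa1*+/- 7, so the gap between these mice rests on the scaling.

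The ER chaperones, which belong to the unfolded protein branches driven by ATF6 and XBP1, served as a neighboring pathway. Of 18 tested, 8 were positive and 10 negative, 0 were called, and the median log2 fold change was -0.02. *Hspa5*, which encodes the chaperone BiP, was at 419 to 451 CPM in WT against 384 to 474 CPM in *Opa1*+/- mice, with a log2 difference of -0.06. *Dnajb9*, a target of XBP1, was at -0.22 (SE 0.08, adjusted p = 0.722), and *Canx* had separated groups at 435 to 442 CPM in WT against 403 to 422 CPM in *Opa1*+/- mice. Over the 101 pathway genes of the 7 lists outside the 10, the median log2 fold change was 0.02. Of these, 2 were higher and 4 lower at an unadjusted p under 0.05, against 3.51% and 3.22% of all genes tested. The pathway plot shows the points of the 101 genes on both sides of 0.

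**Figure D4:**
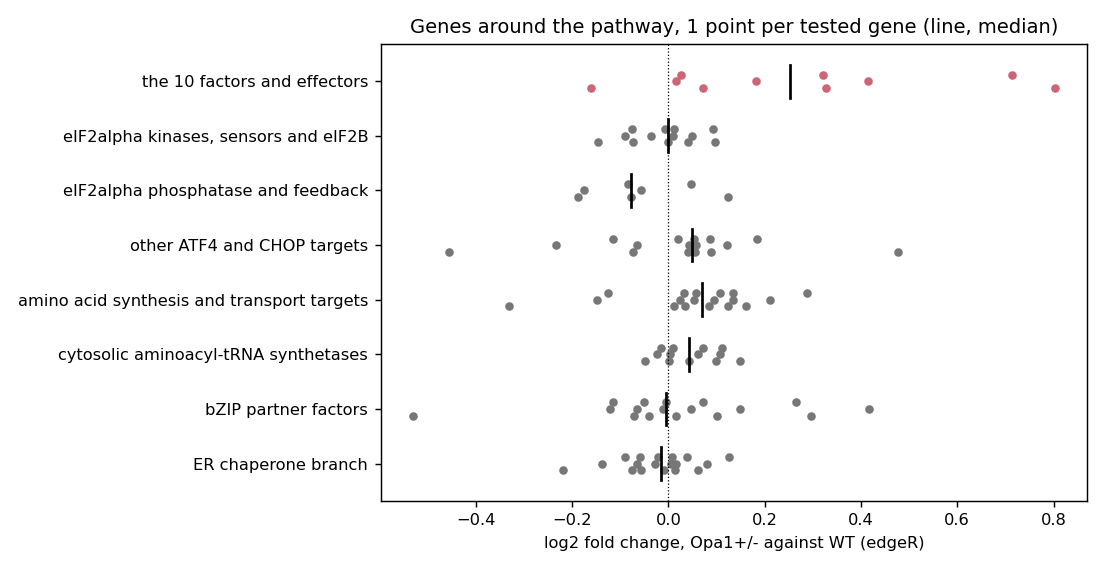
Log2 fold change in *Opa1*+/- against WT mice of each tested gene of the 10 factors and effectors (red) and of 7 surrounding gene lists (grey), 1 point per gene, with a line at each median. The median is 0.25 for the 10 genes and between -0.08 and 0.07 for the other lists.

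Programs that share these genes were also listed. The mitochondrial chaperones and proteases, to which ATF5 contributes, had 9 positive and 1 negative of 10, with *Lonp1*, the matrix protease, at a log2 difference of 0.15 (SE 0.06, adjusted p = 0.722). Of 12 p53 targets, a program that shares *Sesn2* and *Gdf15*, 6 were positive and 6 negative, and *Trp53inp1* was at -0.41 (SE 0.12, adjusted p = 0.722). Among 14 immediate early genes, which like *Atf3* answer acute stimulation, 12 were positive with a median of 0.13. Of these *Egr2*, a myelination factor of Schwann cells, was at 20.1 to 23.0 CPM in WT against 23.5 to 30.6 CPM in *Opa1*+/- mice, a log2 difference of 0.34 (SE 0.09, adjusted p = 0.722). The sum of the 14 was 166 to 188 CPM in WT against 178, 234, 182 and 164 CPM in *Opa1*+/- 2, 7, a and b. Only *Opa1*+/- 7 lay above the WT range in this sum. No gene of these 3 lists was called.

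The library of WT 8, the highest for *Atf3* and *Ddit4*, was also the highest for some stress genes outside the response. *Hspa1a*, an inducible heat shock gene, was at 19.8, 18.3, 33.4 and 76.1 CPM in WT 4, 5, 6 and 8 and at 18.5 to 32.1 CPM in *Opa1*+/- mice. *Hspa1b*, its near-identical copy with which reads can be shared, was at 64.2 CPM in WT 8 and at 15.3 to 27.8 CPM in the other 7 mice. *Tsc22d3*, a glucocorticoid-induced gene, was at 179 CPM in WT 8 and at 106 to 133 CPM in the others, but the sum of the 12 glucocorticoid-responsive genes was highest in *Opa1*+/- b (1146 CPM against 1115 CPM in WT 8), as was *Mt1* of that list, at 315 CPM against 175 CPM in WT 8. WT 8 also had the lowest mitochondrial share of counts, 11.7% against up to 16.1%, and the highest TMM factor, 1.06. Of 9 heat shock and 12 glucocorticoid-responsive genes, 0 had an unadjusted p under 0.05 between genotypes. The part of handling or of cell content in the levels of WT 8 was not tested.

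**Figure D5:**
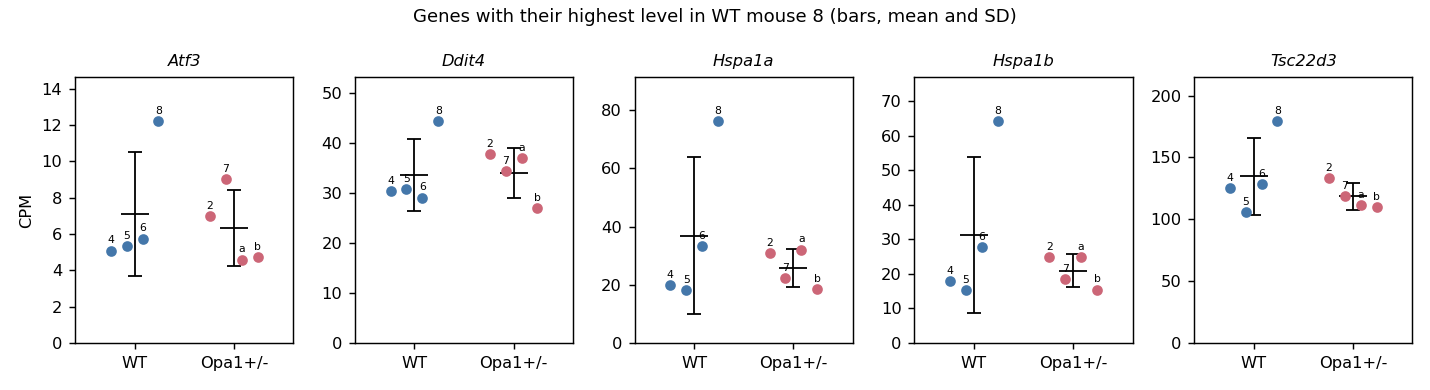
CPM of *Atf3*, *Ddit4*, *Hspa1a*, *Hspa1b* and *Tsc22d3* in each mouse, with animal numbers and bars for the mean and SD of 4 mice. The genes are shown because WT 8 had their highest level, at 12.2, 44.3, 76.1, 64.2 and 179 CPM.

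Each of the erythroid and myelin markers listed had a positive log2 fold change, as did *Atf5*, *Ddit3* and *Chac1*. Summed over 15 erythroid markers, of which *Hba-a1* was the most abundant, the level was 7888 to 21712 CPM in WT against 15296 to 25276 CPM in *Opa1*+/- mice, and 15 of 15 had a positive log2 fold change (median 0.52). WT 4, with 21712 CPM, exceeded 3 of the 4 *Opa1*+/- mice in this sum. Among the WT mice it had the lowest *Atf5* (36.4 CPM), the highest *Ddit3* (30.1 CPM) and the second highest *Chac1* (2.34 CPM). For Schwann cell and myelin markers, led by *Mbp*, the sum was 3500.2 to 4769 CPM in WT against 4173 to 5642 CPM in *Opa1*+/- mice, and 10 of 10 were positive (median 0.18). Skeletal muscle markers summed to 600, 368, 2785 and 777 CPM in WT 4, 5, 6 and 8. In *Opa1*+/- 2, 7, a and b they summed to 392, 1405, 1082 and 174 CPM, and 0 of 11 were positive. WT 6 alone lay above all *Opa1*+/- mice in this sum, and the other WT mice lay within the *Opa1*+/- range. Macrophage markers summed to 284 to 441 CPM in WT against 279.8 to 597 CPM, with 7 positive and 4 negative. Neutrophil and marrow markers summed to 483 to 1568 CPM in WT against 500.2 to 1276 CPM, with 8 positive and 8 negative. The sums of hair cell markers, 219.6 to 314 CPM in WT against 247 to 267 CPM in *Opa1*+/- mice, and of spiral ganglion neuron markers, 5983 to 7098 and 6126 to 7122 CPM, overlapped. Of the 12 hair cell markers 8 were negative (median -0.06), and of the 12 neuron markers 5 (median 0.02). Other lists also leaned lower in *Opa1*+/- mice, with 8 of 10 stria vascularis markers negative (median -0.14), 6 of 8 markers of fibrocytes and acellular gels (median -0.14) and 7 of 10 bone markers (median -0.03). The sums of these lists overlapped between the genotypes too. In the fibrocyte list 1 gene was lower at an unadjusted p under 0.05, *Otor*, named after its value was seen, with a log2 difference of -0.51 (SE 0.15, adjusted p = 0.722). None of these lists had a marker at 0 in any mouse, no marker in them passed the adjusted threshold, and their part in the levels of the 10 genes was not tested.

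In an alternative added once the values were known, WT 4 and *Opa1*+/- a and b were left out, which leaves 3 WT and 2 *Opa1*+/- mice. In these the erythroid sums did not overlap, at 7888 to 12531 CPM in WT against 15296 and 15675 CPM in *Opa1*+/- mice, so this alternative does not separate genotype from blood content. There the log2 fold change was 0.31 for *Atf5*, 0.33 for *Ddit3* and 0.91 for *Chac1*, and 0 of the 10 genes were called. That of *Gdf15* turned to -0.09 and that of *Atf3* to 0.04, and the median over the 10 genes was 0.13. Animal numbers of 3 digits occurred among *Opa1*+/- mice alone, so that a difference tied to numbering and the genotype cannot be told apart in those 2 mice. Without both of them, *Atf5* was at 0.36, *Ddit3* at 0.30 and *Chac1* at 0.82 on the log2 scale.

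For each of the 10 genes, the gene whose log2 CPM followed it most closely over the 8 mice was sought among 13935 genes of at least 5 CPM. *Sbno2* was most like *Atf5* and *H2-K1* most like *Ddit3*, each with a Pearson r of 0.977. *Glb1* was most like *Chac1* (r of 0.951), *Bach1* most like *Atf3* (0.961) and *Emilin2* most like *Ddit4* (0.956). *Leo1* was most like *Atf4* (0.947), *Map1lc3a* like *Trib3* (0.962), *Mapkapk3* like *Gdf15* (0.93), *BC048403* like *Sesn2* (0.923) and *Gm9294* like *Cebpb* (0.965). Each value is the maximum over 13935 genes in 8 libraries, which differ in depth and cell content, and is given as a description.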

How the data were processed

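Bulk RNA seq of cochlea from 4 WT and 4 *Opa1*+/- mice was analysed. The authors prepared CORALL libraries with molecular identifiers, sequenced paired reads of 80 nucleotides, mapped them to GRCm38 with STAR after FastQC (tools named in the submitters' processing notes) and deposited 1 table of raw counts per mouse, whole numbers per gene symbol. The counting program and the use of strand are not given in the sources used here. The 15 entries without a gene symbol, 0.112 to 0.124% of counts, were left out.

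Library sizes were the counts on named genes, scaled by TMM factors (0.948 to 1.06). Genes with a mean DESeq2-normalized count over 10 were tested, 19366 in all, by the quasi-likelihood F test of edgeR 4.0.16, with p-values adjusted over all of them after Benjamini and Hochberg (threshold 0.05). Standard errors come from the F statistic, and intervals are at 95%. Depth was between 15978051 and 20828030 counts per mouse. Pairs of mice of 1 genotype differed more than counting noise, with a chi-square per gene of 6.99 to 30.7. Alternatives were DESeq2 1.42.0, limma 3.58.1 voom with quality weights, robust estimation, other scalings and filters, and mice left out, of which leaving out WT 4 with both 3-digit *Opa1*+/- mice was added after the data were seen. Positions and overlaps are from GENCODE vM21, and promoters from RefSeq. Likeness between genes was Pearson's r of log2(CPM + 0.1).

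The 10 genes and the gene lists were chosen with earlier results of these data known. Named genes are the 10, *Opa1*, a fixed set of regulators and targets, up to 3 genes of lowest p per pathway list, the gene most alike each of the 10, and the most abundant marker of a cell type list. Fits were run in R 4.3.3 and plots drawn with matplotlib 3.10.9 under Python 3.11.15.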

Additional observations from a re-analysis of the deposited data

Results flagged for a closer look

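Within WT mice, *Atf3* was at 12.2 CPM in WT 8 and at 5.08 to 5.74 CPM in the other 3, a gap of 0.908 of the whole range. *Ddit4* was at 44.3 CPM in WT 8 and at 29.0 to 30.7 CPM in the other 3, a gap of 0.893 of the range. Both exceed the critical value of Dixon's test for 4 samples at the 95% level. Of 20 groups examined (10 genes in each genotype), 2 stood out in this way, and chance alone gives about 1 in 20. Both are from the same mouse, and *Atf3* and *Ddit4* are not independent measurements of it.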

How the results depend on the processing

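No paired analysis was possible because the animal numbers are not shared between genotypes. None of the 10 genes passed the adjusted threshold in the fit or in any of 18 alternatives, and 3 or 4 were higher at an unadjusted p under 0.05 in each, where the share of all genes that were higher at that p ran from 1.46% to 6.03%. The count of called genes among all tested was 5, and it was 23 with DESeq2, 10 with robust estimation, 10 with limma voom, 12 without a filter, 0 to 9 when 1 mouse was left out (9 without WT 4, 8 without *Opa1*+/- 7, 2 without WT 5, 0 or 1 without any other), 0 without *Opa1*+/- a and b, the 3-digit mice, and 0 without WT 4 as well. The sign of *Ddit4* turned with total counts alone (-0.014), with voom (-0.0083) and on leaving out single mice (-0.0468 to 0.175). That of *Atf3* turned without WT 8 (-0.39 to 0.24 over single mice), without both 3-digit mice (0.17) and without WT 4 as well (0.0395). That of *Sesn2* turned without WT 8 or without *Opa1*+/- 7 (-0.0693 to 0.116 over single mice), and that of *Gdf15* without WT 4 and both 3-digit mice (-0.0901), although not on leaving out single mice (0.36 to 1.03). Causes were not tested. At an unadjusted p under 0.05, the pathway genes outside the 10 numbered 2 higher and 4 lower, and over the alternatives 0 to 10 higher, with 10 without WT 6, and 1 to 6 lower. *Gdf15* fell under the minimum count without both 3-digit mice. *Opa1* stayed between -0.91 and -0.83, and its adjusted p was over 0.05 without *Opa1*+/- 2 (0.0704, log2 fold change -0.85), without both 3-digit mice (0.260, -0.86) and without WT 4 as well (0.656, -0.87). Depth limits *Gdf15*, *Trib3* and *Chac1* most, with 4 to 89 counts per mouse.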
